A study of Mus musculus with 2 samples.

Results

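The lysosomal protease genes of mouse alveolar macrophages were examined: the cathepsin genes Ctsa, Ctsb, Ctsc, Ctsd, Ctsh, Ctsk, Ctsl, Ctss and Ctsz, and the legumain gene Lgmn. They were taken by name, 10 of 22180 genes that carried their own symbol in the array annotation, and each was read by 1 feature (a set of probes for a transcript). The macrophages, resident phagocytes of the air spaces, were isolated by cell sorting from mouse lungs at 8 to 10 weeks of age. The arrays held RNA from Lysm-Cre Ssu72fl/fl mice (1 array) and Lysm-Cre control mice (1 array), and both groups therefore carried Cre. In Lysm-Cre mice, Cre is expressed from the lysozyme 2 locus, which is active in myeloid cells in general, so its action is not limited to alveolar macrophages. Ssu72 encodes an RNA polymerase II tail phosphatase, and fl/fl denotes 2 floxed alleles, which Cre can recombine. The sources used here do not give the number of mice behind an array.

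Each genotype had 1 array, so the genotypes could not be tested against each other and no difference has a replicate check. Values are the authors' log2 expression values, and a difference is the Lysm-Cre Ssu72fl/fl array minus the Lysm-Cre array. Ssu72 itself read 4.998 on the Lysm-Cre Ssu72fl/fl array and 4.862 on the Lysm-Cre array, a difference of 0.14, so its signal did not check the label and every direction rests on the label alone. The sources used here do not say where its probes lie relative to the deleted part. In place of a replicate error, each gene is set against the scatter among genes of similar signal, called the spread, a robust SD (scaled median absolute deviation) of the differences of the 200 compared genes nearest in mean level. A gene was compared if it exceeded the floor of 4.65, the median of all values, on at least 1 array, and 13015 genes did. All 10 protease genes were above the floor on both arrays. In such bulk RNA, fewer cells of a type and less RNA per cell cannot be told apart.

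Cathepsins are proteases that degrade proteins in the acid interior of endosomes and lysosomes. They are made as inactive precursors and are trimmed into active enzymes on the way to, or inside, the lysosome. Most are cysteine proteases of the papain family, whereas cathepsin D is an aspartic protease, cathepsin A a serine carboxypeptidase, and legumain a cysteine protease that cuts after asparagine. In macrophages they digest phagocytosed material, and several of them process antigens and the invariant chain for presentation on MHC class II.

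All 10 genes read lower on the Lysm-Cre Ssu72fl/fl array, with log2 differences from -0.91 to -0.094 and a median of -0.39. The legumain gene Lgmn differed most, followed by Ctss and Ctsb, the genes of cathepsins S and B, and Ctsh differed least. These values have to be read against the background: 51.9% of all compared genes were lower, with a median of -0.0068. Among the 1810 compared genes in the same range of mean level, 5.52 to 9.67, the share was 70.6% and the median -0.16. At least 1.5-fold lower were 3 of the 10 genes, Lgmn, Ctss and Ctsb, against 1.37% of all compared genes and 8.84% of those in that range of level. All 3 have a mean level of at least 6, and 129 of the 856 compared genes at such a level were at least 1.5-fold lower. No protease gene reached 2-fold, a size that 0.115% of all compared genes reached in either direction, 11 lower and 4 higher. That split turned with the scaling, to 1 lower and 13 higher after quantile normalization.

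**Figure D1:**
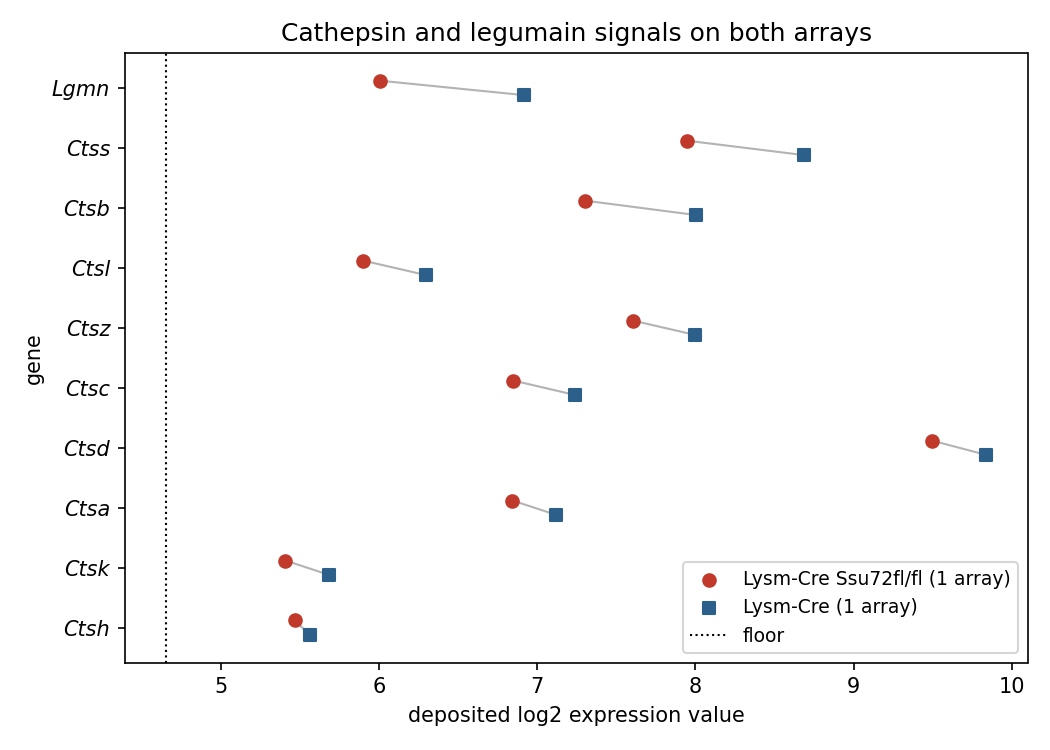
Deposited log2 expression value (horizontal axis) of each cathepsin gene and Lgmn (vertical axis, ordered by difference) on the Lysm-Cre Ssu72fl/fl array (circles, drawn above) and the Lysm-Cre array (squares), 1 array each, with the floor of 4.65 as a dotted line. Each circle lies left of its square, with differences from -0.91 for Lgmn at the top to -0.094 for Ctsh at the bottom.

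The difference between the arrays depended on the signal level, and the protease genes have to be read against that trend. Of the genes with higher signal, most read lower on the Lysm-Cre Ssu72fl/fl array: the 856 compared genes with a mean level of at least 6 had a median of -0.28, and 659 of them were lower. Of the 10 protease genes, 8 lie in that range of level. For each gene a level-adjusted difference is therefore given too, from which the smooth trend with level has been subtracted. On this scale 7 of the 10 were below 0, with a median of -0.12, against 45.5% of the genes in their range of level, with a median of 0.029. Only Lgmn differed by more than the spread of the level-adjusted values around it. Quantile normalization gave 6 of 10 below 0, against 48.2% of all compared genes.

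**Figure D2:**
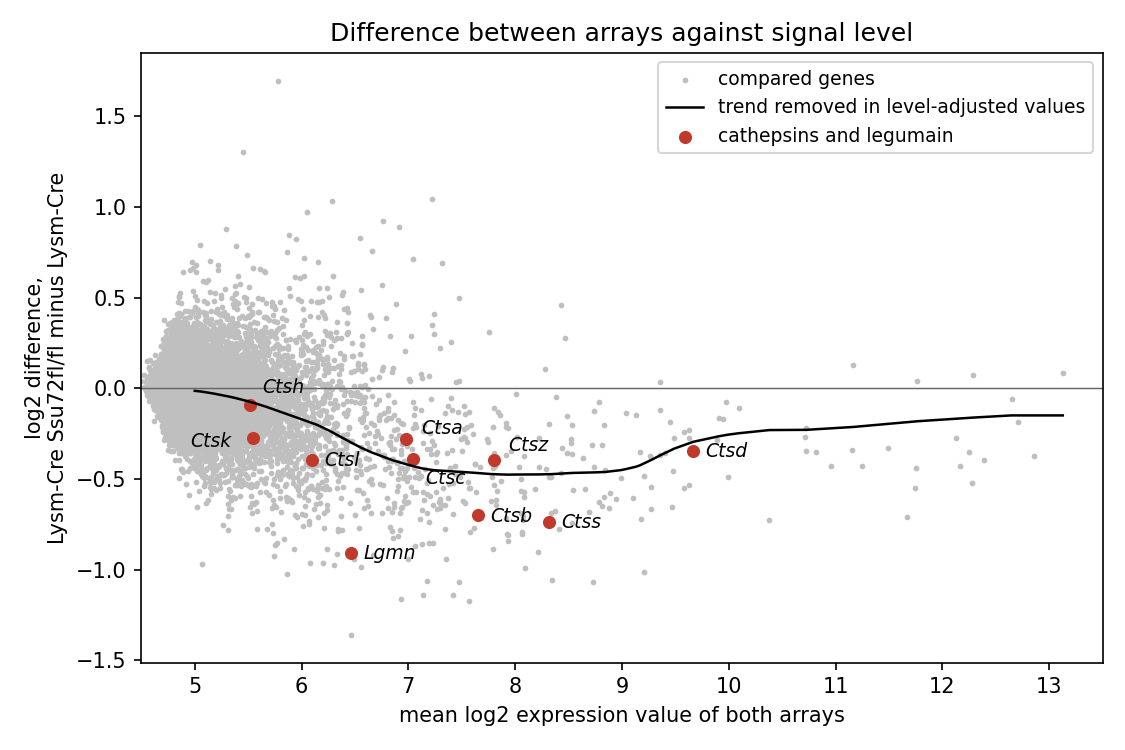
Log2 difference, Lysm-Cre Ssu72fl/fl minus Lysm-Cre (vertical axis), against the mean log2 expression value of both arrays (horizontal axis) for 13015 compared genes (grey points) and the 10 protease genes (red points), with the curve removed in the level-adjusted values (black line, drawn from level 5). Lgmn, Ctss and Ctsb lie below the line, while Ctsa, Ctsc and Ctsz lie slightly above it.

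Legumain is the asparaginyl endopeptidase of the lysosome, and it also takes part in the processing of cathepsins B, L and H. Lgmn read 6.01 on the Lysm-Cre Ssu72fl/fl array and 6.92 on the Lysm-Cre array. Its signal ranked 762 of 22180 genes on the Lysm-Cre Ssu72fl/fl array and 342 on the Lysm-Cre array, with rank 1 the brightest. On a linear scale the Lysm-Cre Ssu72fl/fl value is 53.3% of the Lysm-Cre value, if the deposited values carry no offset. The difference of -0.91 was the 24th lowest of 13015 compared genes, and only 5 of the 200 genes nearest in level were lower still. Those 200 genes had a median of -0.17 and a spread of 0.33. After level adjustment Lgmn stood at -0.61, and its rank was 32 from the lowest. After quantile normalization Lgmn was at -0.63. The spread as deposited also served for the median-centred and quantile-normalized values. Ctss (-0.31) and Ctsb (-0.30) exceeded that spread, 0.28 for each, after quantile normalization too, but not their spread after level adjustment. Measured from 0, Lgmn was the single protease gene whose difference was larger than the spread as deposited, median-centred, quantile-normalized and level-adjusted. The genes with the most similar pair of values were Cd53, which encodes a leukocyte tetraspanin, the chemokine gene Cxcl16 and the ribosomal protein gene Rps24. Their differences were -0.94 (Cd53), -0.77 (Cxcl16) and -0.78 (Rps24). Likeness is the distance between the 2 log2 values and rests on 2 arrays alone.

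Cathepsins S, L and K are papain-family endopeptidases, and cathepsins S and L cut the invariant chain of MHC class II, cathepsin S in professional antigen-presenting cells and cathepsin L in the thymic epithelium. Ctss read 7.95 on the Lysm-Cre Ssu72fl/fl array and 8.69 on the Lysm-Cre array. The difference of -0.74 was the 64th lowest of all compared genes, and 24 of the 200 genes nearest in level, which had a median of -0.44 and a spread of 0.28, were lower still. Its difference was -0.31 after quantile normalization, and its level-adjusted difference was -0.26, inside the spread. Ctsl read 5.90 on the Lysm-Cre Ssu72fl/fl array and 6.30 on the Lysm-Cre array, a difference of -0.39. That lay within 1 spread (0.30) of the local median of -0.16. Level adjustment left -0.20. The rank of Ctsl among all genes was 897 on the Lysm-Cre Ssu72fl/fl array and 615 on the Lysm-Cre array.

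Cathepsin K is best known as the collagen-degrading protease of osteoclasts. Ctsk read 5.41 on the Lysm-Cre Ssu72fl/fl array and 5.68 on the Lysm-Cre array, both within about 1 unit of the floor. The 200 genes nearest in level had a median of -0.077 and a spread of 0.22. The difference of -0.28 lay within 1 spread of that median, and level adjustment left -0.20, also inside the spread. Its rank was 2162 on the Lysm-Cre Ssu72fl/fl array and 1493 on the Lysm-Cre array. Ctsk and Ctss are neighbours on mouse chromosome 3, with 1 predicted gene, Gm40096, starting between them in the RefSeq table, and they differed by -0.28 and -0.74.

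Cathepsins B, H, Z and C include the exopeptidases of the papain family. Cathepsin B acts both as an endopeptidase and as a dipeptidyl carboxypeptidase. Ctsb read 7.30 on the Lysm-Cre Ssu72fl/fl array and 8.00 on the Lysm-Cre array. The difference of -0.70 was the 78th lowest of all compared genes, and 30 of the 200 genes nearest in level, which had a median of -0.44 and a spread of 0.28, were lower still. It was -0.30 after quantile normalization and -0.23 after level adjustment, the level-adjusted value being inside the spread.

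Cathepsin Z, also called cathepsin X, is a carboxypeptidase. Ctsz read 7.61 on the Lysm-Cre Ssu72fl/fl array and 8.00 on the Lysm-Cre array, a difference of -0.39. The 200 genes nearest in level had a median of -0.44, so Ctsz lay above the middle of them, and its level-adjusted difference was 0.079. Cathepsin C, or dipeptidyl peptidase I, is the aminopeptidase that activates the serine proteases stored in granules of neutrophils, mast cells and cytotoxic lymphocytes. Ctsc read 6.85 on the Lysm-Cre Ssu72fl/fl array and 7.24 on the Lysm-Cre array. The difference of -0.39 stood beside a local median of -0.37, and the level-adjusted value was 0.040. The direction of both genes thus depended on the scaling, and quantile normalization also put them above 0, at 0.035 for Ctsz and 0.018 for Ctsc.

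Cathepsin H is an aminopeptidase that is also abundant in alveolar type 2 epithelial cells, where it takes part in the processing of surfactant protein B. Ctsh read 5.47 on the Lysm-Cre Ssu72fl/fl array and 5.56 on the Lysm-Cre array. Its difference of -0.094 was the smallest of the 10 and lay inside the spread of 0.24. Of the 200 genes nearest in level 93 were lower still, and the level-adjusted difference was -0.020. The genes with the most similar pair of values were Slc35c2, Chd5 and Cmtm7, each at 5.46 to 5.48 on the Lysm-Cre Ssu72fl/fl array and 5.57 on the Lysm-Cre array. They encode a nucleotide sugar transporter family member, a chromatin remodeler and a MARVEL domain membrane protein.

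Cathepsin D, the main aspartic protease of lysosomes, had the highest rank of the 10. Ctsd read 9.49 on the Lysm-Cre Ssu72fl/fl array and 9.84 on the Lysm-Cre array, rank 32 on the Lysm-Cre Ssu72fl/fl array and 33 on the Lysm-Cre array. The difference of -0.35 was smaller in size than the local median of -0.43, but few genes lie at this level and the nearest 200 reached from 7.23 to 11.8. The level-adjusted value was -0.050, and quantile normalization gave 0.083, so its direction also turned with the scaling.

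Cathepsin A is a serine carboxypeptidase that also binds and protects beta-galactosidase and the sialidase neuraminidase 1 in a lysosomal complex. Ctsa read 6.84 on the Lysm-Cre Ssu72fl/fl array and 7.12 on the Lysm-Cre array, a difference of -0.28 against a spread of 0.30. Of the 200 genes nearest in level, whose median was -0.37, 124 were lower still. Ctsa was above 0 after level adjustment (0.14) and after quantile normalization (0.14). Its rank was better on the Lysm-Cre Ssu72fl/fl array, at 262, than on the Lysm-Cre array, at 289. Neu1, the gene of its partner neuraminidase 1, read 5.98 on the Lysm-Cre Ssu72fl/fl array and 5.84 on the Lysm-Cre array (0.14), and the beta-galactosidase gene Glb1 was not analysed here.

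**Figure D3:**
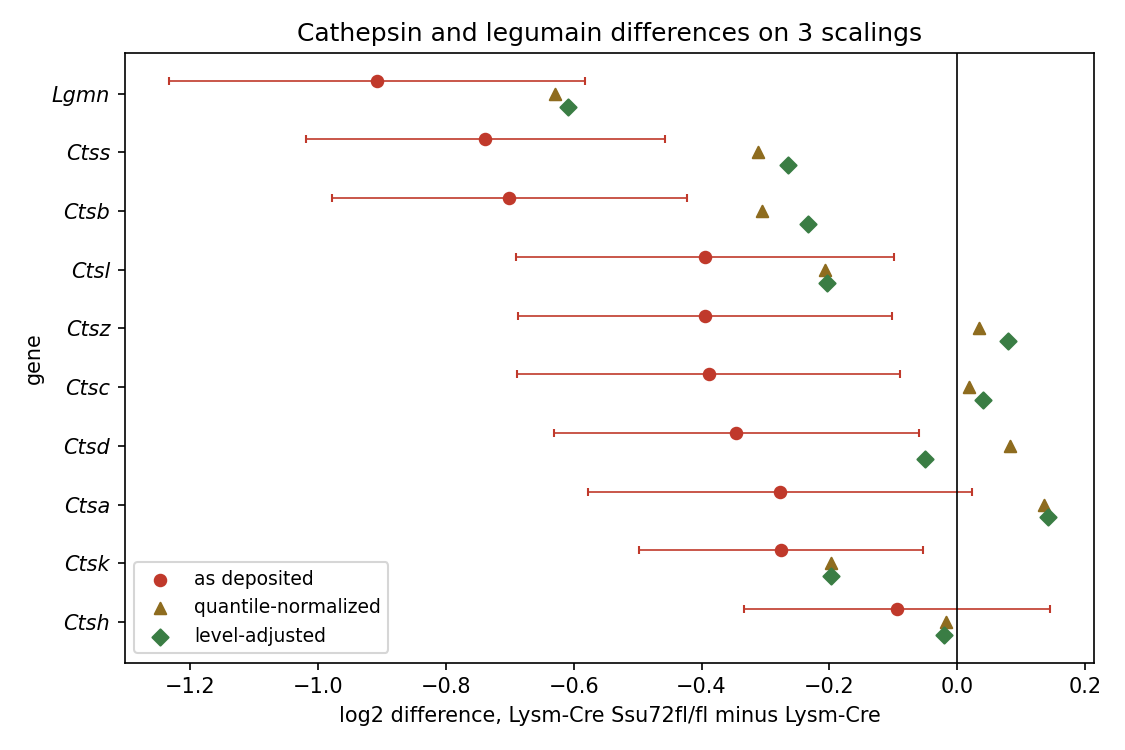
Log2 difference, Lysm-Cre Ssu72fl/fl minus Lysm-Cre (horizontal axis), of the 10 protease genes (vertical axis) as deposited (circles, with bars of 1 spread among the 200 genes nearest in level), after quantile normalization (triangles) and after level adjustment (diamonds). Lgmn stays lowest in all of them, and Ctsa, Ctsc and Ctsz lie right of 0 in both adjusted forms.

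By catalytic type, the 7 papain-family genes had differences from -0.74 to -0.094 with a median of -0.39, and a level-adjusted median of -0.20. The aspartic Ctsd and the serine Ctsa, at -0.35 and -0.28, lay inside that range, and Lgmn lay outside it. The SD between the 10 differences was 0.25, which is a scatter between genes.

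Promoter sequences were looked at for an element of lysosomal genes, and whether it bears on the differences was not tested. Transcription factors of the TFEB, TFE3 and MITF family activate lysosomal genes through elements that contain the letters CACGTG, the E-box core, in the promoter. RefSeq windows (build GRCm38.p6) of 300 bases, from 250 before to 50 after a transcription start, were matched for 8 of the 10 genes, all but Ctsb and Ctsh, in 10 windows. CACGTG reads the same on both strands. It was present for 4 genes, Ctsa, Ctsd, Lgmn and Ctsl, against 8.09% of 27025 genes in the table. By window it was present in 4 of 10, against 7.15% of 32851 windows. The windows at the first start of Ctsa and of Lgmn held no match. The longer form TCACGTGA, which contains CACGTG, was present for Ctsa and Ctsd, against 1.12% of genes. The stretches around the matches are given in the direction of transcription, with CACGTG in capitals.
Ctsa, second start, chr2:164833731-164833813, plus strand: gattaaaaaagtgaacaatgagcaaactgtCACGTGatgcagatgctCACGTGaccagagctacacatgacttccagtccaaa
Ctsd, chr7:142387890-142388077, minus strand: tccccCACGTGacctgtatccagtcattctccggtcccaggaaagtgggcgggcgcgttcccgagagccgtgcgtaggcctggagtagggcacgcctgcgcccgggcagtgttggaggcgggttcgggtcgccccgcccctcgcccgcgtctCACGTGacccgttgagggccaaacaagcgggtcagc
Lgmn, second start, chr12:102439106-102439171, minus strand: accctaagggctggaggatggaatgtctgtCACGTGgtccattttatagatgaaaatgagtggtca
Ctsl, chr13:64370721-64370770, minus strand: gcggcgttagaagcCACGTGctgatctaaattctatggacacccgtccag
The matches in Ctsa begin 12 bases before the start and 5 bases after it, and those in Ctsd 245 and 98 bases before it. For Lgmn and Ctsl they begin 49 and 236 bases before the start. A match describes these letters only. The genes with a match differed by -0.28 (Ctsa), -0.35 (Ctsd), -0.91 (Lgmn) and -0.39 (Ctsl), and those with windows but no match by -0.74 (Ctss), -0.39 (Ctsz), -0.39 (Ctsc) and -0.28 (Ctsk), ranges that overlap.

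Among 6 compared regulators of lysosomal genes, 3 lay below 0 and 3 above, where 51.9% of all compared genes were lower. The median of the 6 was -0.034, and none reached 1.5-fold. Tfe3 had the highest signal of them, at the 90.7th percentile of genes, and read 5.38 on the Lysm-Cre Ssu72fl/fl array and 5.52 on the Lysm-Cre array (-0.14, level-adjusted -0.075). Tfeb read 4.88 on the Lysm-Cre Ssu72fl/fl array and 4.75 on the Lysm-Cre array (0.12), and Flcn, which encodes folliculin, a regulator of TFEB and TFE3 localisation, was as far above 0 (0.12). At the other end were the kinase gene Mtor (-0.28) and Tfec (-0.21), a further gene of the TFEB family. Their level-adjusted differences were -0.27 against a spread of 0.15 (Mtor) and -0.21 against 0.11 (Tfec). Tfec was close to the floor on the Lysm-Cre Ssu72fl/fl array, at 4.65. Tfeb, level-adjusted 0.13 against a spread of 0.12, passed its spread in the other direction.

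Of 11 other cathepsins and lysosomal peptidases, 10 were compared, 6 lower and 4 higher, where 51.9% of all compared genes were lower. The 10 had a median of -0.034 and none was at 1.5-fold, but most had low signal. Their level-adjusted median was -0.052, with 6 of 10 below 0, beside -0.12 and 7 of 10 for the 10 cathepsin and legumain genes. On that scale 5978 of the 13015 compared genes were below 0. The difference between the lists was not tested. Tpp1, the gene of tripeptidyl peptidase 1, was the only one with a mean level over 6 and was higher, at 6.27 on the Lysm-Cre Ssu72fl/fl array and 6.03 on the Lysm-Cre array (0.23, level-adjusted 0.43 against a spread of 0.28). Ctsf was at 4.86 on the Lysm-Cre Ssu72fl/fl array and 4.70 on the Lysm-Cre array (0.16). The lowest were Prcp and Scpep1, which encode serine carboxypeptidases. Prcp differed by -0.34 (level-adjusted -0.27 against a spread of 0.21) and Scpep1 by -0.18 (level-adjusted -0.11 against a spread of 0.23).

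Cystatins are the natural inhibitors of cysteine cathepsins. Cst3, the gene of cystatin C, read 6.53 on the Lysm-Cre Ssu72fl/fl array and 7.31 on the Lysm-Cre array in its brighter feature (-0.78, level-adjusted -0.37 against a spread of 0.28). Its other feature was at 4.94 on the Lysm-Cre Ssu72fl/fl array and 5.31 on the Lysm-Cre array (-0.38). Cstb, the gene of cystatin B, was at 5.40 on the Lysm-Cre Ssu72fl/fl array and 5.61 on the Lysm-Cre array (-0.21), and Cst7, the gene of cystatin F, differed by 0.012. The genes Cst6, Stfa1, Stfa2 and Stfa3 were below the floor on both arrays.

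Of 7 compared genes of MHC class II processing, in which cathepsin S and legumain take part, 6 were lower, with a median of -0.55. When level-adjusted, 5 of the 7 were below 0, with a median of -0.17. The 1.5-fold mark was passed by 3 of them and the 2-fold mark by H2-Ab1. Of all compared genes in the range of level of the cathepsin and legumain genes, 70.6% were lower and 8.84% were at least 1.5-fold lower. Of the 856 compared genes with a mean level of at least 6, 659 were lower and 129 at least 1.5-fold lower. H2-Ab1 (-1.07) and H2-Aa (-0.86), the chains of I-A, had level-adjusted differences of -0.61 and -0.41. Ifi30, the gene of the lysosomal thiol reductase GILT, read 7.22 on the Lysm-Cre Ssu72fl/fl array and 7.85 on the Lysm-Cre array (-0.63, level-adjusted -0.17). H2-Eb1 (-0.55) and H2-DMa (-0.39) had level-adjusted values of -0.089 and 0.0053, and Ciita was higher (0.17). H2-DMb2 was below the floor on the Lysm-Cre Ssu72fl/fl array (-0.064, a bound), and the invariant chain gene Cd74 was not analysed here. The endosomal Toll-like receptors, some of which cathepsins and legumain cleave into active forms, were listed with their chaperone gene Unc93b1. Of these, 3 of 5 compared genes were lower, with a median of -0.21, where 51.9% of all compared genes were lower. Unc93b1 (-0.45) and Tlr8 (-0.31) were lowest, and Tlr13 (0.035, a bound) and Tlr9 (0.024) highest. Level-adjusted, Unc93b1 was at -0.30 against a spread of 0.26 and Tlr8 at -0.27 against 0.18.

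Genes that deliver the enzymes to lysosomes were divided, 4 lower and 4 higher of 8 compared, with a median of 0.014. For all compared genes the share lower was 51.9%. Sort1, the sorting receptor sortilin, was lowest (-0.40, level-adjusted -0.16), followed by M6pr (-0.16), the cation-dependent mannose 6-phosphate receptor. Gga1 (0.17), an adaptor of these receptors, and Nagpa (0.096), which uncovers the mannose 6-phosphate tag, were highest. The granule serine proteases that cathepsin C activates were near the floor: 4 of 7 were compared, with a median of 0.018. Their ends were Gzma (-0.092, a bound) and Elane (0.011, a bound), and Ctsg (0.047, a bound) and Prtn3 (0.025).

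**Figure D4:**
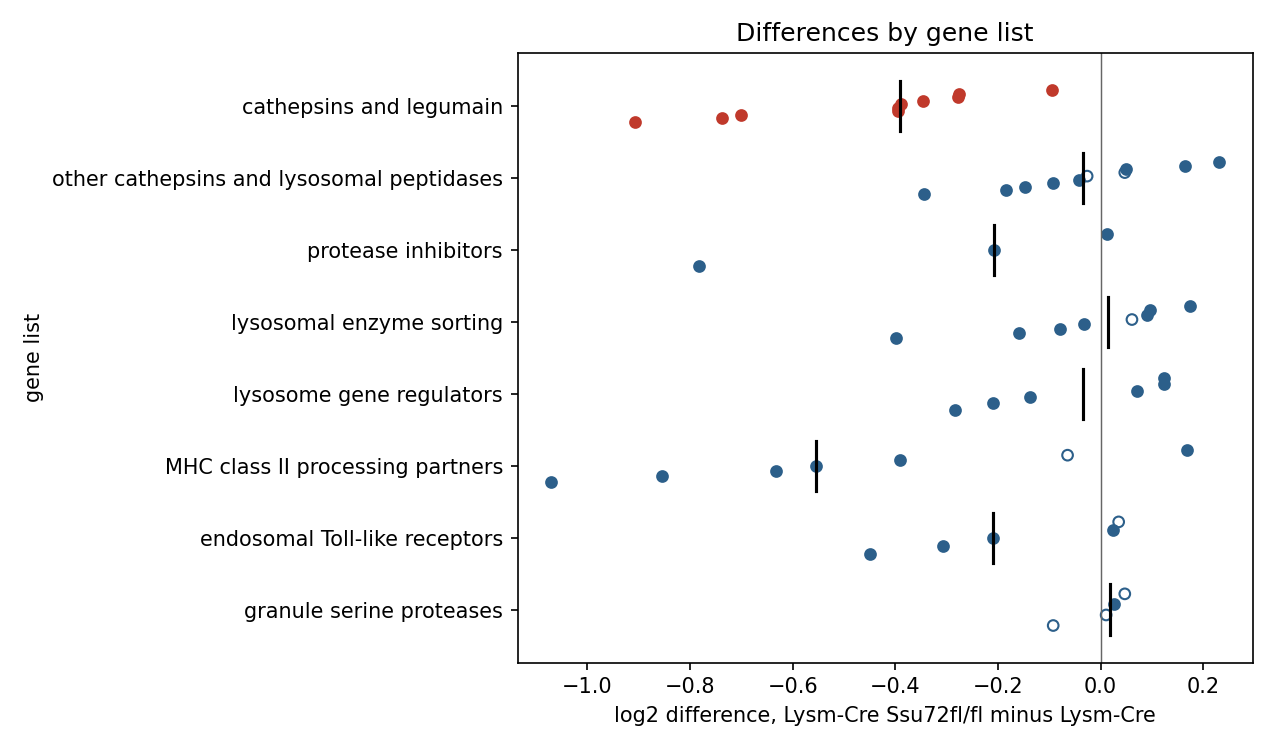
Log2 difference, Lysm-Cre Ssu72fl/fl minus Lysm-Cre (horizontal axis), of every compared gene of the cathepsin and legumain genes and of 7 related lists (vertical axis), with open circles for genes below the floor on 1 array, whose values are bounds, and a black line at each list's median. The medians run from -0.55 for MHC class II processing and -0.39 for the cathepsin and legumain genes to 0.018 for granule serine proteases.

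Markers were used to check the sorted cells. Of 13 alveolar macrophage markers found, all 13 were above the floor on at least 1 array, and Chil3, Plet1, Cd9 and Mrc1 had mean levels above the 99th percentile of genes. Siglecf, Fabp4 and Fabp5 were at the 82.3rd, 82.8th and 85.3rd percentiles, and Fabp4 was the marker that read higher (0.19). As deposited 12 of the 13 were lower, with a median of -0.28, against 70.6% of compared genes in the protease genes' range of level. When level-adjusted 6 were lower, with a median of 0.13. Their mean level was 6.64 on the Lysm-Cre Ssu72fl/fl array and 6.88 on the Lysm-Cre array.

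Markers of other cells were read in the same way. As background, 51.9% of all compared genes were lower, and 70.6% of those in the protease genes' range of level. The interstitial macrophage markers had a mean level of 5.20 on the Lysm-Cre Ssu72fl/fl array and 5.40 on the Lysm-Cre array, with 7 of 10 compared genes lower (median -0.25, level-adjusted -0.19). Their brightest, Cx3cr1 and C1qb, lay at the 97.0th and 96.7th percentiles (-0.63 and -0.48). Cx3cr1 alone of the 10 was at least 1.5-fold lower (level-adjusted -0.42 against a spread of 0.29), against 8.84% of compared genes in the protease genes' range of level. Monocyte markers averaged 5.0 on the Lysm-Cre Ssu72fl/fl array and 5.25 on the Lysm-Cre array, with 5 of 6 lower (median -0.28, level-adjusted -0.26). Alveolar type 2 cell markers, which matter for Ctsh, averaged 5.69 on the Lysm-Cre Ssu72fl/fl array and 5.89 on the Lysm-Cre array, with 6 of 7 lower (median -0.20, level-adjusted -0.091). Sftpc, the defining gene of those cells, read 8.35 on the Lysm-Cre Ssu72fl/fl array and 8.71 on the Lysm-Cre array, at the 99.7th percentile. Sftpb, Sftpa1 and Napsa lay at the 96.7th, 95.5th and 89.7th percentiles, and Slc34a2, Abca3 and Lamp3 at the 78.3rd, 65.4th and 54.3rd. The part of alveolar type 2 cells in the differences of the protease genes was not tested. Dendritic cell markers had 4 of 4 compared genes lower (median -0.21, level-adjusted -0.032), with Zbtb46, Xcr1 and Itgae below the floor on both arrays. The brightest of them, Cd209a, read 8.65 on the Lysm-Cre Ssu72fl/fl array and 8.97 on the Lysm-Cre array, at the 99.7th percentile. Ccr7 lay at the 91.1st percentile (-0.099) and Ccl22 at the 90.5th (-0.51, level-adjusted -0.45). Fibroblast and osteoclast markers, both relevant to Ctsk, had 3 of 4 and 3 of 5 lower (medians -0.093 and -0.11). Neutrophil markers had 4 of 7 lower (median -0.032), and Camp, Mpo and Cxcr2 were below the floor on both arrays. B, T and NK cell markers had 1 of 2, 1 of 3 and 2 of 3 compared genes lower.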

How the data were processed

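Gene expression was measured on 2 Affymetrix arrays of sorted alveolar macrophages, 1 per genotype, with groups taken from the genotype labels. Per the labels' protocols, 6 ug of total RNA went into biotin-labelled cRNA. The authors deposited 1 log2 expression value per feature. That scale was inferred from their range, 4.23 to 13.5, with medians of 4.66 (Lysm-Cre Ssu72fl/fl) and 4.65 (Lysm-Cre). MAS5 is named in the submitters' processing notes, with no role stated. The sources used here do not give the background correction, normalization, centring or any offset. An offset would compress differences, above all at low signal.

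Of 33793 features, 23521 carried 1 gene symbol in the platform annotation, 1814 several and 8458 none. Genes were read from the first kind alone, of which 23328 took their symbol from RefSeq (GRCm38.p6) through the Entrez identifier. Each gene took its feature with the highest mean, and values below the floor (50th percentile of all values) were set to it. Probes differ in response, so ranks of signal between genes are approximate. With no replicates there was no test. Differences were read by size, and precision is limited by the number of arrays. The level trend was a lowess curve (fraction 0.3) through medians of level bins 0.1 wide, of at least 10 features each. The procedure was also run on simulated data. There the planted changes were larger than any protease gene difference and the noise smaller than their spreads. That run therefore does not speak to changes of the size reported here. Python 3.11.15, pandas 2.3.3 and statsmodels 0.14.6 were used.

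The proteases, lists and settings were chosen with earlier results of these data known. All 10 members were named, with up to 2 genes at each end of the other lists, and every gene with a mean level over 6 in the lists of other peptidases, inhibitors and MHC class II partners. Alternatives were median centring, quantile normalization, level adjustment, the mean of a gene's features, floors at the 25th and 75th percentiles, and thresholds of 1.5-fold and 3-fold.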

Additional observations from a re-analysis of the deposited data

How the results depend on the processing

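Median centring, the mean of a gene's features and the floors at the 25th and 75th percentiles left the count of lower genes at 10 of 10, and the 2-fold count at 0. Under these settings 49.8% to 57.5% of all compared genes were lower. Quantile normalization put 6 of 10 below 0, against 48.2% of all compared genes. It placed Ctsa at 0.14, Ctsc at 0.018, Ctsd at 0.083 and Ctsz at 0.035. Level adjustment put 7 of 10 below 0, against 46.1% of all compared genes, with Ctsa at 0.14, Ctsc at 0.040 and Ctsz at 0.079. Both settings remove the trend of difference on level by construction. On these arrays most bright genes read lower on the Lysm-Cre Ssu72fl/fl array, so removing that trend lifts their differences. At a threshold of 1.5-fold 3 of the 10 genes were counted, and 178 lower and 41 higher of all compared genes, against 11 and 4 at 2-fold. At 3-fold 0 lower genes and 1 higher gene were counted. Level adjustment turned the 2-fold split over all genes to 1 lower and 11 higher. The median of the 10 differences was -0.40 after centring, -0.11 after quantile normalization and -0.12 after level adjustment. No paired analysis was possible because each genotype had 1 array, and for the same reason no array could be left out. No signal could be set against array background, since only processed values were used, and Ctsk and Ctsh lay nearest to the floor.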
